A study of Mus musculus with 9 samples.

Results

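The genes of 10 chaperones and co-chaperones of steroid receptors were examined for binding by the receptors themselves: Hsp90aa1, Hsp90ab1, Stip1, Ptges3, Fkbp4, Ppid, Hspa8, Dnajb1, Bag1 and Hsph1. They were chosen by name for the role of their proteins, out of 21911 protein-coding genes of the mouse annotation, with earlier results of these data known. Fkbp5, another co-chaperone gene, was not among them and is given below with other chaperone genes. A peak was assigned to a gene when its summit, the base of highest signal, lay in the gene body or within 20 kb of it. Of the 10 genes, 4 had a peak in at least 1 of 6 lists (Hsp90ab1, Dnajb1, Stip1 and Ptges3), with 12 peaks at 7 sites in all. The other 6 (Fkbp4, Hsp90aa1, Hspa8, Hsph1, Bag1 and Ppid) had none.

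The lists come from ChIP-nexus, a chromatin immunoprecipitation in which an exonuclease trims the bound DNA before sequencing, in Neuro2A (N2A) cells, a mouse neuroblastoma line. The cells had been transiently co-transfected with the glucocorticoid receptor (GR) carrying EGFP and the mineralocorticoid receptor (MR) carrying mCherry, each precipitated through its tag, so the peaks report tagged receptors expressed together in the same cells. The receptors are described as mouse in the deposited design text and as rat cDNAs in the study's methods. Cells received vehicle, 100 nM corticosterone (CORT) for 20 min, or the same 20 min of CORT followed by 2 washes and 40 min without steroid (washout), and an input was sequenced for each treatment. The 3 replicates of a condition had been combined into 1 list, so no value below has a replicate error and no difference was tested. After CORT, the study called fewer sites in at least 2 of the 3 replicates than the combined lists hold, most markedly for GR. Which of the peaks below were among them is not known from the combined lists. Vehicle lists were short (64 GR peaks, 73 MR peaks), CORT lists long (10602 and 14638), and washout left 246 GR and 4885 MR peaks. Read depth is unknown from these files, and peak lists hold no expression values, so neither the cell type nor the level of any chaperone was checked. The strength of a peak, the −log10 p of the peak caller against input, rises with depth. It is therefore given with the rank of the peak in its own list, as a percent from the top, where peaks with the same −log10 p share a rank.

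In the absence of hormone, a steroid receptor is folded into its hormone-binding form by a relay of chaperones. Hspa8 encodes HSC70, the constitutive HSP70, which receives the receptor with help from the J-domain protein encoded by Dnajb1. Stip1 encodes HOP, which holds HSP70 and HSP90 together during the handover. The HSP90 proteins encoded by Hsp90aa1 and Hsp90ab1 then bind the receptor with p23, the product of Ptges3, and with a large immunophilin such as FKBP52 (Fkbp4) or CYP40 (Ppid). Bag1 and Hsph1 encode nucleotide exchange factors of HSP70. The receptors bind DNA at glucocorticoid response elements (GREs), palindromes made of a pair of inverted hexamers, whereas many chaperone genes are classical targets of heat shock factor 1, which binds heat shock elements (HSEs).

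The 4 sites called for both receptors after CORT carry most of the binding described here, and 1 more, called for GR alone, is shown because its GRE match lies whole within the peak. All are on the plus strand of GRCm38 (mm10), each spanning the overlapping peaks of its lists. Capitals mark a match to a GRE, written as AGAACA and TGTTCT separated by 3 bases, with at most 3 mismatches in the 12 fixed positions. The Dnajb1 site had no such match and is all in lower case.
Dnajb1 downstream site, chr8:83623717-83623926: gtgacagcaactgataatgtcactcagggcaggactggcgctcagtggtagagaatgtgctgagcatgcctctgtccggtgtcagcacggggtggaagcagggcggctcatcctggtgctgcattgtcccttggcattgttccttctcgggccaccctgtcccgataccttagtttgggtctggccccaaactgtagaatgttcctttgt
Hsp90ab1 downstream site, chr17:45551212-45551391: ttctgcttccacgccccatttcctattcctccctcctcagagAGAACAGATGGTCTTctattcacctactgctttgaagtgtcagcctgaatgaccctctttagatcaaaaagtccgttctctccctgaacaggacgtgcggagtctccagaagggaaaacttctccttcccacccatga
Hsp90ab1 near upstream site, chr17:45584363-45584659: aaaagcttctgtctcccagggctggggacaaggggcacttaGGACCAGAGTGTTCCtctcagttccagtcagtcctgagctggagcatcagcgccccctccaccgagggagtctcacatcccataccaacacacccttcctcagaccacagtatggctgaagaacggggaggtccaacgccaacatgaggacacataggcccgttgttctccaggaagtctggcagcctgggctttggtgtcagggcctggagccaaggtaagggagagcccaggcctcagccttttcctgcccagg
Hsp90ab1 far upstream site, chr17:45585656-45585786: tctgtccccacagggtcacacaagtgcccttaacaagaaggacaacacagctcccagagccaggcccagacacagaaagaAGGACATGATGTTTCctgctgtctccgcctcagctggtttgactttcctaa
Stip1 far upstream site, chr19:7054584-7054689: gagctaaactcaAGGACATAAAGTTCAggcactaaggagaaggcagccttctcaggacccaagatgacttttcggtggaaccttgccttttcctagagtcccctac

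After CORT, 3 of the 10 genes had a GR peak (Hsp90ab1, Stip1 and Dnajb1), beside 26.3% of all protein-coding genes. MR peaks were found near 3 of the 10 as well (Hsp90ab1, Ptges3 and Dnajb1), beside 30.2% of all protein-coding genes. Both counts were close to these backgrounds. The 10 genes are short, from 4.46 kb for Dnajb1 to 22.1 kb for Hsph1, with a median of 12.01 kb against 17.4 kb over all protein-coding genes. Among the 12361 genes no longer than Hsph1, 20.8% were near a GR CORT summit and 23.2% near an MR CORT summit.

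After washout no chaperone gene had a GR peak, where the background was 1.02%, and Hsp90ab1 alone had an MR peak, where it was 14.3%. After vehicle no member had a peak of either receptor, with a background of 0.11% for each. With 64 and 73 peaks genome-wide, the vehicle lists leave little room for a peak near any given gene. Hsp90ab1 and Dnajb1 had peaks of both receptors after CORT, a pattern of 21.7% of protein-coding genes. Stip1 had GR peaks only, as did 4.6% of genes, and Ptges3 an MR peak only, as did 8.52%. The 6 genes with neither stand beside 65.2% of protein-coding genes with neither.

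**Figure D1:**
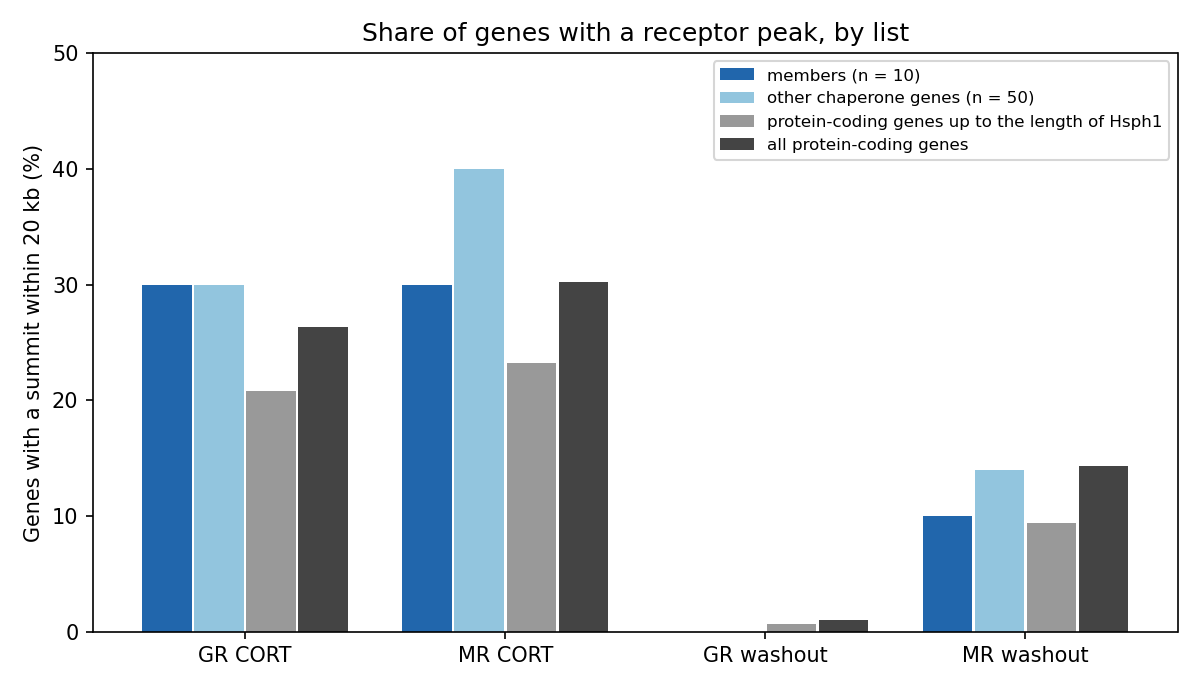
Percent of genes with a peak summit in the gene body or within 20 kb of it (vertical axis) in the CORT and washout lists of GR and MR (horizontal axis), for the 10 chaperone genes, 50 other chaperone and co-chaperone genes, the 12361 protein-coding genes no longer than Hsph1 and all 21911 protein-coding genes. The bars of the 10 genes, at 30% for both receptors after CORT and 10% for MR after washout, stand close to those of all protein-coding genes.

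No peak lay in the body of any of the 10 genes, and none lay within 8 kb of the start of any of them. The closest was a GR peak 8.28 kb upstream of Stip1. Over all protein-coding genes, 9.92% had a GR summit and 11.3% an MR summit within 8 kb of the start after CORT, and 3.40% and 3.33% within 1 kb. Of the 7 sites, 5 lay between genes. At 4 the nearest start of a protein-coding gene was that of the chaperone itself, so that the other 3 lay closer to the start of another gene. For nearest starts, here and below, the outermost start of each protein-coding gene was used, and other transcript starts and non-coding genes were not considered.

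**Figure D2:**
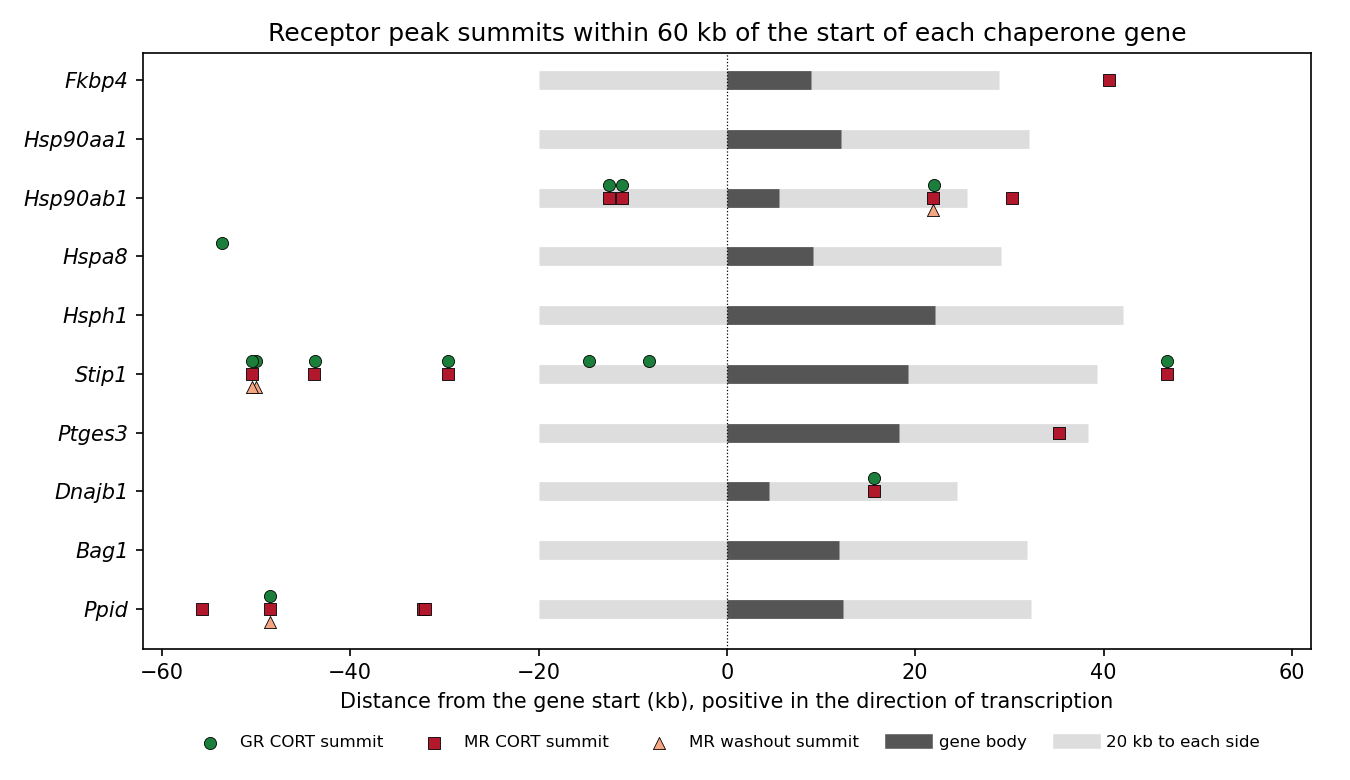
Peak summits by distance from the gene start in kb, positive in the direction of transcription (horizontal axis), for each of the 10 chaperone genes (vertical axis). Circles are GR CORT summits, squares MR CORT summits and triangles MR washout summits, the dark bar is the gene body and the light bar the 20 kb to each side. All symbols lie outside the gene bodies, and those within 20 kb belong to Hsp90ab1, Stip1, Ptges3 and Dnajb1.

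Hsp90ab1, which encodes the constitutive HSP90 beta, carried 7 of the 12 peaks. The gene (ENSMUSG00000023944.14) spans chr17:45567775-45573271 on the minus strand. It had 3 GR peaks and 3 MR peaks after CORT, pairwise at the same 3 sites, and 1 MR peak after washout. The strongest peak of each receptor near any of the 10 genes was at one of these sites, but not at the same one.

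The near upstream site lies 11.2 kb upstream of the Hsp90ab1 start, between this gene and Slc29a1. By the outermost start of each gene, no start of another protein-coding gene is closer. Here GR had a −log10 p of 17.2, rank 653 of 10602 and 6.16% from the top, the strongest GR peak near any of the 10 genes. MR had a −log10 p of 10.6 at rank 4705 of 14638, 32.1% from the top. The 2 summits were 2 bp apart, and the GR peak, 271 bp wide, was among the widest 7.67% of its list. Its best GRE match, GGACCAGAGTGTTCC, had 3 mismatches and was centred 47 bp from the GR summit.

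The far upstream site lies 12.5 kb upstream, in a coding exon of Slc29a1, which encodes a nucleoside transporter. MR ranked higher here, with a −log10 p of 14.9 at rank 1919 (13.1% from the top). GR had 7.38 at rank 7262 (68.5%). The summits were 13 bp apart, and the GRE match AGGACATGATGTTTC, with 3 mismatches, was centred 3 bp from the MR summit.

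The downstream site lies 16.5 kb beyond the end of Hsp90ab1 by its GR summit, between Tmem151b and Nfkbie, and its nearest start is that of Tmem151b, under 2 kb away. MR had its strongest peak near any of the 10 genes at this site, with a −log10 p of 22.9 at rank 526, 3.59% from the top. GR had 9.99 at rank 3521 (33.2%), a value that 826 peaks of that list share. The summits were 71 bp apart, farther than the median of 27 bp over shared sites, and the GRE match AGAACAGATGGTCTT lay 16 bp from the GR summit and 87 bp from the MR summit. This was also the only site of the 10 genes with a peak after washout: MR had a −log10 p of 9.01 there, rank 2521 of 4885 and 51.6% from the top.

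The other HSP90 gene, Hsp90aa1 (ENSMUSG00000021270.13, chr12:110690605-110702728, minus strand), encodes the inducible HSP90 alpha and had no peak within 20 kb in any list. Its nearest GR CORT summit was 183 kb away and its nearest MR CORT summit 92.6 kb away. For MR after washout the nearest was at 92.7 kb, 100 bp from the CORT summit.

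Of the co-chaperones of HSP90, Stip1 had GR peaks only. The gene (ENSMUSG00000024966.9, chr19:7020702-7039967, minus strand) had 1 GR CORT peak 8.28 kb upstream, at chr19:7048215-7048318, with a −log10 p of 7.57 and a rank of 6949 (65.5% from the top). A second, the far upstream site printed above, lay 14.7 kb upstream and 2.16 kb from the start of Macrod1, with 8.66 and rank 5190 (49.0%), a value that 1167 peaks share. Both thus stood at or below the middle of the list. Between 20 and 50 kb Stip1 had 5 more GR peaks and 4 MR peaks after CORT, the nearest MR summit at 27.5 kb and 0.676 kb from the start of Dnajc4.

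Ptges3 (ENSMUSG00000071072.12, chr10:128058954-128077272, plus strand) had 1 peak, for MR after CORT at chr10:128094210-128094253. It lies 16.9 kb beyond the end of the gene, in an intron of Baz2a and 2.63 kb from the Baz2a start. Its −log10 p of 5.31 put it at rank 13751, 93.9% from the top, so it was the weakest of the 12 peaks by rank. The nearest GR summit to Ptges3 was at 72.5 kb.

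The immunophilin genes in this set of 10, Fkbp4 and Ppid, had no peak within 20 kb. Fkbp5, an immunophilin gene outside the set, had 13 GR and 16 MR peaks after CORT by the same rule. Fkbp4 (ENSMUSG00000030357.10, chr6:128429735-128438677, minus strand) had its nearest MR CORT summit at 31.6 kb, 1.21 kb from the start of Nrip2 and 61.3% from the top. Its nearest GR CORT summit was 2839 kb away and its nearest MR washout summit 2841 kb away. Ppid (ENSMUSG00000027804.13, chr3:79591342-79603650, plus strand) had its nearest MR CORT summit at 32.0 kb, rank 1385 and 9.46% from the top, with Fnip2 as the nearest start. Its nearest GR summit, at 48.5 kb, is an intronic site of Fnip2, a gene on the list of other co-chaperones.

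Among the genes of the HSP70 cycle in this set of 10, Dnajb1 alone had peaks, 1 for each receptor. The gene (ENSMUSG00000005483.10, chr8:83608193-83612653, plus strand) is the shortest of the 10, and the site lies 11.2 kb beyond its end, with no other protein-coding gene between them and 28.9 kb before the next, Gipc1. MR had a −log10 p of 16.8 at rank 1362 (9.30% from the top), and GR 11.9 at rank 2261 (21.3%). The MR peak, 177 bp wide, was in the widest 8.12% of its list. The summits were 79 bp apart, and the best GRE match, 2 bp from the MR summit, had 4 mismatches. The nearest MR washout summit was 365 kb from the gene.

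The remaining genes of the HSP70 cycle in this set, Hspa8, Hsph1 and Bag1, had no peak within 20 kb. For Hspa8 (ENSMUSG00000015656.17, chr9:40800984-40810087, plus strand) the nearest GR CORT summit was at 53.7 kb, with the Hspa8 start as its nearest start, and the nearest MR summit at 225 kb. For Hsph1 (ENSMUSG00000029657.15, chr5:149614287-149636376, minus strand) they were at 241 and 240 kb, and for Bag1 (ENSMUSG00000028416.12, chr4:40936398-40948294, minus strand) at 250 and 86.7 kb.

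Limits from 17 to 27 kb would give each list the same genes as 20 kb, but wider changes would not. Within 5 kb MR CORT had 0 genes, and within 50 kb it had 6. The assigned peak farthest from its gene was that of Ptges3 at 16.9 kb, and the nearest summits left out for a gene without a peak in that list were those of MR at 27.5 kb from Stip1, 31.6 kb from Fkbp4 and 32.0 kb from Ppid. The median distance to the nearest summit over the 10 genes was 63.1 kb for GR CORT, 31.8 kb for MR CORT and 180 kb for MR washout. Over all protein-coding genes it was 101, 75.7 and 230 kb. More than 100 kb from any summit were 4 of the 10 genes for GR CORT and 2 for MR CORT, against 50.1% and 44.8% of all genes.

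**Figure D3:**
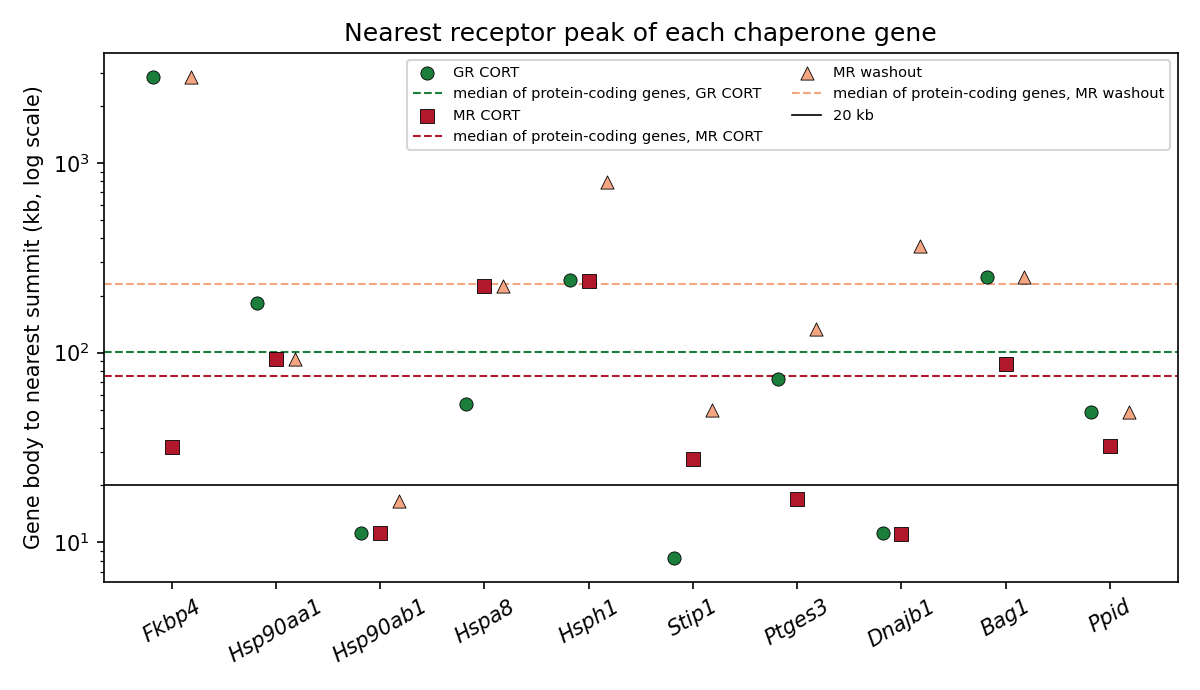
Distance from each gene body to the nearest peak summit in kb, on a log scale (vertical axis), for the 10 chaperone genes (horizontal axis) and the GR CORT, MR CORT and MR washout lists. Dashed lines are the medians over all protein-coding genes (101, 75.7 and 230 kb) and the solid line is 20 kb; the distances run from 8.28 kb for GR at Stip1 to 2841 kb for MR washout at Fkbp4.

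At the 4 shared sites the receptors did not keep the same order. The rank of GR minus that of MR, in percent from the top, was 12.02 points at the Dnajb1 site, 29.6 at the Hsp90ab1 downstream site, 55.4 at its far upstream site and −26.0 at its near upstream site. MR thus ranked higher at 3 sites and GR at 1, and over all 6446 shared GR and MR pairs GR ranked higher at 42.6%. A difference as high as that of the far upstream site was found at 5.77% of all pairs, and one as low as that of the near upstream site at 15.1%. These 2 sites, with opposite orders, start 1293 bp apart.

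**Figure D4:**
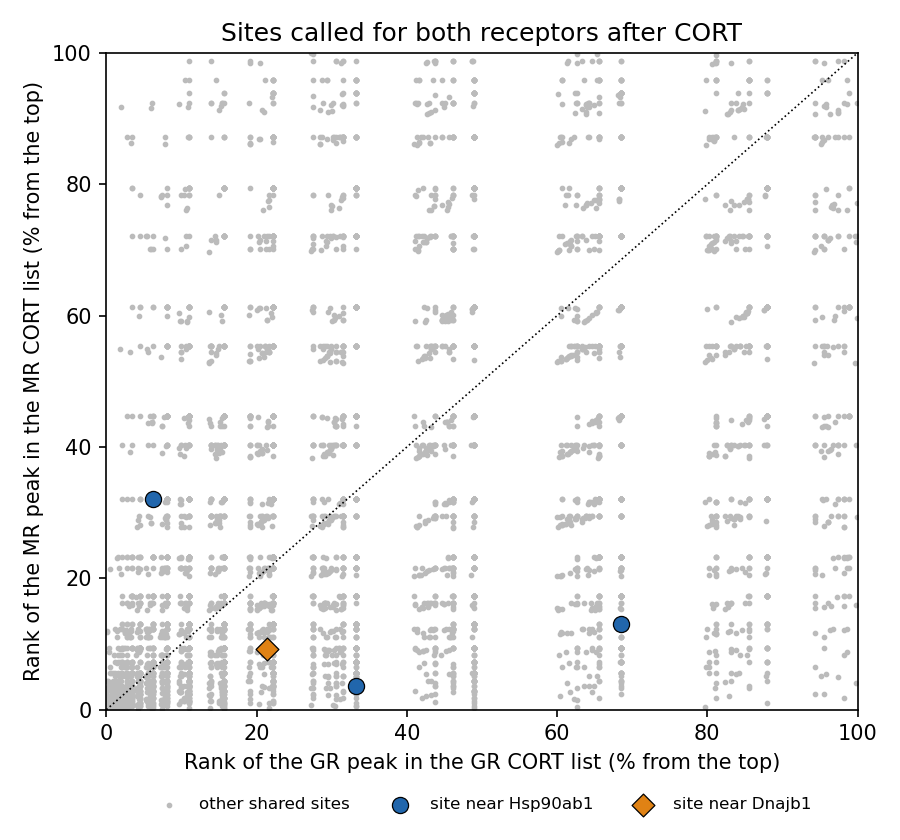
Rank of the GR peak in the GR CORT list (horizontal axis) against that of the MR peak in the MR CORT list (vertical axis), both in percent from the top, for 6446 sites called for both receptors; gaps and bands come from tied −log10 p values, and equal ranks lie on the dotted line. Circles are the 3 sites near Hsp90ab1 and the diamond is the site near Dnajb1; 3 of these 4 lie below the line, where MR ranked higher.

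Of the 6 GR CORT peaks near the chaperone genes, 4 (66.7%) shared 1 bp or more with an MR CORT peak, against 61.0% of the whole list. The exact binomial 95% interval, which covers counting error only, ran from 22.3% to 95.7%. It treats the 6 peaks as independent, although 3 lie near Hsp90ab1 and 2 near Stip1. Of the 5 MR CORT peaks, 4 shared sequence with a GR CORT peak (80%, interval 28.4% to 99.5%), against 47.6% of the whole list. Both intervals hold the value of the whole list, and both counts rest on the same 4 sites. Where summits had to lie within 50 bp of each other, the shares were 33.3% and 40%.

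After washout 1 of the 5 MR CORT peaks was still called at the same place for MR (20%, interval 0.505% to 71.6%), against 24.6% of the list. The peak kept, at the Hsp90ab1 downstream site, was the one of highest rank. Within the top 20% of the MR CORT list, 60.4% of peaks overlapped a washout peak, and 3 of the 5 peaks stood there, so the Dnajb1 site and the far upstream site of Hsp90ab1 were MR peaks of that top 20% with no washout call. None of the 6 GR CORT peaks overlapped a GR washout peak (interval up to 45.9%), and 2.13% of the whole GR CORT list did.

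A GRE match with at most 3 mismatches within 100 bp of the summit was found at 5 of the 6 GR CORT peaks, the Dnajb1 peak being the exception. The share was 37.7% over all GR CORT peaks and 14.6% in windows 1 kb away. For MR after CORT it was 3 of 5 peaks, all near Hsp90ab1, against 39.9% of the list and 15.2% in the windows 1 kb away. Each of these matches had exactly 3 mismatches, and none had 2 or fewer. With at most 2 mismatches the share was 10.5% over all GR CORT peaks and 11.5% over all MR CORT peaks. The shares near these genes rest on 6 and 5 peaks, and their difference from the lists was not tested. With at most 3 mismatches within 50 bp of the summit, the shares near these genes were 50% for GR and 20% for MR. At the near upstream Stip1 peak the match, GGGACACCCTGTGCT, was centred 39 bp from the summit and crossed the edge of the peak.

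An HSE, taken as 3 triplets GAA or TTC in alternating orientation spaced by 2 bases with at most 1 mismatch in 9 fixed positions, was found at none of the 12 peaks. With 2 mismatches allowed it was found at 50% of the GR CORT peaks, 40% of the MR CORT peaks and the MR washout peak. At that setting the whole lists had 35.8% for GR CORT, 37.2% for MR CORT and 37.3% for MR washout. With at most 1 mismatch it was about as frequent over the lists at summits as 1 kb away. The shares were 4.85% against 4.79% for GR CORT and 5.07% against 4.84% for MR CORT. In promoter windows of RefSeq, from 250 bases before to 50 after a start (GRCm38.p6), 6 of the 10 genes were matched, with 8 windows. Of these 6 genes, Hsph1, Fkbp4 and Ptges3 held an HSE match, and Stip1, Dnajb1 and Bag1 did not, where 7.22% of all 32851 windows held one. A GRE match was in none of the 8 windows and in 14.5% of all windows. Hsp90aa1, Hsp90ab1, Hspa8 and Ppid had no entry. The HSE matches upstream of the RefSeq starts are printed here on the strand of the gene, since they stand where no receptor peak was called. Capitals mark the HSE, which in Hsph1 is 2 overlapping matches. The annotation used for the peaks places the Hsph1 start farther upstream, so this HSE falls inside the gene body given above. A further, exact HSE of Hsph1 lies just after its RefSeq starts.
Hsph1, chr5:149636332-149636389, minus strand: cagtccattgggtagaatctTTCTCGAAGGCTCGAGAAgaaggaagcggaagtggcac
Fkbp4, chr6:128438780-128438832, minus strand: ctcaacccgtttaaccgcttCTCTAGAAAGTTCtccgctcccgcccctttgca
Ptges3, chr10:128058856-128058908, plus strand: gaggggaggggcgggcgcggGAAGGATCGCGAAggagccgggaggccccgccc

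Paired exonuclease borders, a second readout of the same libraries that marks both edges of a protected stretch, were absent within 20 kb of all 10 genes in each of 9 lists, the 3 inputs included. The lists held 139 pairs for GR and 3285 for MR after CORT. The GR CORT list gives positions only, without p-values, and holds fewer pairs than the study reports for GR after CORT. Its lack of a pair near these genes, and its share of all genes with a pair, therefore carry little weight. The MR CORT list holds the number of pairs the study reports. Over all protein-coding genes, 0.265% and 8.82% had such a pair in these 2 lists, and between 10.9% and 13.8% in the inputs.

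Of 50 other chaperone and co-chaperone genes, 15 (30%) had a GR peak after CORT, 20 (40%) an MR peak after CORT and 7 (14%) an MR peak after washout, and none had a peak in the other lists. The exact binomial 95% interval of the share for MR after CORT, 26.4% to 54.8%, holds the 30.2% of all protein-coding genes, and the other shares were within 4 points of all genes. The strongest MR CORT peak of the list was that of Fkbp5, the immunophilin induced by glucocorticoids, at rank 11. Bag3, a stress-inducible HSP70 exchange factor, and Fnip2, a co-chaperone of HSP90, followed with an intronic peak each at −log10 p of 31.4 and rank 154, then Bag2 at 13.6 and Cdc37l1 at 13.4.

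Hsp90ab1 had peaks in the GR CORT, MR CORT and MR washout lists, and 6 of the 50 genes had peaks in the same 3 lists and no other. The 5 closest to it in their number of MR CORT peaks, where it had 3, were Bag3 with 4, Cdc37l1 with 2, Hsf1 with 2, Fnip2 with 5 and Cryab with 1. Hsf1, the gene of heat shock factor 1, had 2 peaks in each of the 3 lists, and its strongest MR CORT peak lay 1.53 kb from its start, nearer than any peak of the 10 genes. Cryab encodes a small heat shock protein. This likeness rests on 3 lists and on counts of peaks alone.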

How the data were processed

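The 9 deposited samples are GR, MR and input libraries after vehicle, CORT and washout. The authors trimmed reads for quality, aligned them to mm10 with Bowtie 2, removed duplicates by random barcode, kept mapping quality above 20, combined 3 replicates, called peaks against input with MACS2 2.1.1.20160309 at a false discovery rate of 0.05, and called border pairs with MACE. In the deposited peak files the values are not those their headers name. The columns used hold the −log10 p-value and −log10 q-value of the authors' peak caller, a score of 10 times the latter, and the summit offset. The p-values deposited with the border pairs were not used, and their positions were. Coordinates were converted to 1-based. Genes were from GENCODE M21 and sequence from RefSeq GRCm38.p6. Summits were assigned to genes, ranked and overlapped, and motifs scanned on both strands, in Python 3.11.15 with numpy 2.4.6, pandas 2.3.3, scipy 1.17.1, pysam 0.24.0, matplotlib 3.10.9 and samtools 1.23.1. The motif scan and the 20 kb rule for assigning summits to a gene were tested on simulated data, and the other steps were not. The members and lists were chosen with earlier results of these data known. All 10 genes are named. Peaks are described if among the 3 strongest of a list or the strongest of their gene, with the others added after their values were seen. Of the 50 other genes, those with the 5 strongest MR CORT peaks, Fkbp5 and the 5 most like Hsp90ab1 are named. The set of genes no longer than Hsph1 was added after values were seen. The counts of genes, peaks and border pairs, the overlaps between lists of CORT and of each receptor's washout, and the motif shares at peaks were recomputed under other distances, thresholds, overlaps and motif settings. Ranks, nearest distances, shares around start sites and promoter matches were not. Low depth could hide weak peaks, and the combined CORT lists hold peaks that were not called in each replicate.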

Additional observations from a re-analysis of the deposited data

How the results depend on the processing

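Each condition has 1 list, so no replicate could be left out. No paired analysis was possible because the replicates were combined before deposit and no result comes from a test. Of 116 alternatives for 37 results, 81 stayed within limits and 35 did not. Of the 81, 55 were a value of 0 that stayed 0, as in the vehicle lists, the GR washout list and the border pairs. The limit was 1.5 times the value for a count and the exact binomial 95% interval for a share, which is wide with 1 to 6 peaks. Within the gene body alone or within 5 kb of it, GR CORT, MR CORT and MR washout each had 0 genes and 0 peaks. Within 50 kb, MR CORT had 6 genes and 15 peaks, GR CORT 12 peaks, and MR washout 3 genes and 3 peaks. With a −log10 q of at least 5, GR CORT had 3 peaks and MR washout 0 genes and 0 peaks. At that threshold, 100% of GR CORT peaks overlapped MR CORT peaks and 0% of MR CORT peaks overlapped MR washout peaks. When each peak was given to its nearest start, MR CORT had 3 peaks and MR washout 0 genes and 0 peaks, the downstream site of Hsp90ab1 going to Tmem151b. The share of peaks with a GRE was 0% at 2 mismatches for GR CORT and MR CORT and 100% at 4 mismatches for both and for MR washout, and 100% for MR washout within 200 bp. The whole GR CORT and MR CORT lists had 10.5% and 11.5% at 2 mismatches. At 4 mismatches the whole lists had 79.0% for GR CORT, 82.1% for MR CORT and 83.5% for MR washout. With 2 mismatches an HSE was found at 50% of GR CORT, 40% of MR CORT and 100% of MR washout peaks, the last being 1 peak. The whole lists had 35.8%, 37.2% and 37.3% at that setting. With at most 1 mismatch, an HSE was found within 200 bp at 20% of MR CORT peaks. Within their intervals, but over 1.5 times lower, were the overlaps when summits had to lie within 50 bp (33.3% of GR CORT and 40% of MR CORT peaks) and the GRE shares within 50 bp of the summit (50% and 20%). Of the 50 other genes, 13 had an MR CORT peak within 5 kb and 12 with a −log10 q of at least 5. Overlap and GRE shares within the body or 5 kb have no value, since no peak is left.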
